A study of Mus musculus with 6 samples.

Results

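The untreated course of an incisional skin wound from repair into remodelling was read from 2 libraries of mouse skin, the vehicle library of day 6 and the vehicle library of day 14, out of 6 libraries in the series. The step was described as the log2 ratio of the day 14 to the day 6 value of each gene, after adding 0.1 FPKM (fragments mapped to a gene, divided by transcript length in kilobases and by library size) to both. The ratio was read for 13392 of 23913 genes, those whose mean across all 6 libraries reached 1 FPKM. With 1 library on each side there was no replicate error and no test within the vehicle wounds, and each ratio describes these libraries.

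Skin wounds pass through inflammation, then through closure by migrating keratinocytes and deposition of new matrix, and at last through remodelling, when inflammatory cells leave and the new matrix is reshaped. Keratinocytes at a wound edge switch on a set of keratins and proteases that resting epidermis does not use. Hair follicles of the same skin run on their own cycle of growth, regression and rest, and a growing follicle makes large amounts of hair keratins and of the keratin-associated proteins that crosslink them.

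The mice were of the C3H strain and 8 to 10 weeks old, with an incision of 2.5 cm, and the libraries were made from polyadenylated RNA of the resected skin. Vehicle was put on the wound every other day from day 0 to day 12 in the study's account, while the sample labels call these wounds untreated. The other arm received 2 mg of vemurafenib, an inhibitor of the kinase BRAF, on the same days, and each arm had 1 library on days 2, 6 and 14. How many mice stand behind a library was not given in the sources used here, so differences between mice could not be measured. The number of reads was not given either, and the depth behind a value is unknown.

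The libraries held the keratinocyte genes Krt5, Krt14, Krt10 and Lor and the collagens Col1a1 and Col3a1 at 72.8 FPKM or more, while the albumin gene Alb, the insulin gene Ins2 and the kidney gene Umod lay under 1 FPKM in all 6. The summed FPKM ran from 692634 to 931171 per library, with 732688 in the vehicle library of day 14. The small RNA gene Mir6236 alone took 13.9% of the total of the vehicle library of day 6 and 1.65% on day 14. The vehicle library of day 14 and the vemurafenib library of day 2 listed 6000 and 6088 genes at 0, against 5214 to 5446 in the others. In the same pair under 0.04% of the values above 0 had more than 6 digits, against at least 50.3% in the others. Whether a column stands for 1 sequencing run or for a mean of more was not given in the sources used here.

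Among all genes, 1683 were at least 2-fold higher on day 14 (12.6% of those measured) and 1353 at least 2-fold lower (10.1%), and the median log2 ratio was 0.04. Just inside the 2-fold limit (log2 of 1 to 1.1) lay 317 higher genes, and just outside it (0.9 to 1) lay 318. On the lower side these counts were 202 and 259. The vehicle library of day 14 was the highest of all 6 libraries for 1528 of the 1683 higher genes and the lowest for 836 of the 1353 lower ones. These genes were picked by the ratio of that library to day 6, which favours such ranks, and no share over all genes was taken. Rescaling every library to the same total FPKM moved the median of all genes to 0.31 and the counts to 2642 higher and 868 lower, so that 75.3% of the 2-fold genes were higher in place of 55.4%.

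The vehicle step also followed the base composition of the transcripts. Of the 13392 genes, 12093 (90.3%) could be matched to a protein-coding transcript of the mm9 annotation (GENCODE M1), and they were cut into quintiles by the GC content and by the length of the longest one. The median log2 ratio fell from 0.65 in the quintile with the lowest GC content, up to 44.9%, to -0.41 in the quintile with the highest, from 56.4%. Across the quintiles by length it ran from -0.46 for transcripts up to 1612 bases to 0.50 for those from 4655 bases. In the vemurafenib step the same medians stayed between -0.07 and 0.09 for GC content and between -0.06 and 0.06 for length. Spearman's rho of the ratio with GC content, over 12093 genes that share the same libraries, was -0.46 in the vehicle and 0.10 in the vemurafenib step. After the median of each of 50 bins of GC content and length was set to 0, 858 genes were at least 2-fold higher (7.1%) and 1000 lower (8.27%), against 1541 and 1160 of the same genes before. Of these, 750 and 762 were 2-fold both ways. The ratio of vehicle to vemurafenib had a rho with GC content of 0.22 on day 6 and -0.56 on day 14, and with length of -0.15 and 0.44. What made the libraries follow composition was not tested. Ratios centred in this way, a choice made after the trend had been seen, are given below as "centred" for some genes and lists. Other 2-fold ratios below can also come under 2-fold when centred, and the last section counts them.

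**Figure D1:**
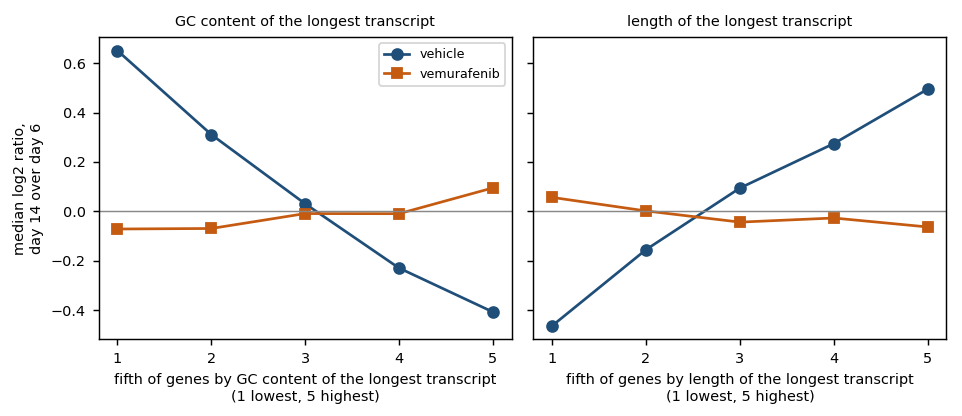
Median log2 ratio of day 14 to day 6 (vertical axis) in quintiles of the 12093 genes ordered by GC content (left) or length (right) of the longest transcript, for the vehicle (circles) and the vemurafenib step (squares). The vehicle medians run from 0.65 to -0.41 with GC content and from -0.46 to 0.50 with length, while the vemurafenib medians stay within 0.1 of 0.

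A change common to both arms was tested with limma on log2 FPKM of all 6 libraries, with day and arm as factors. The fit left 2 residual degrees of freedom, and p-values were adjusted by Benjamini-Hochberg over the 13392 genes. It called 247 genes higher on day 14 (1.84%) and 241 lower (1.8%), and an unadjusted p under 0.05 was reached by 2565. In the text below, "rose" and "fell" are kept for genes that passed this test of both arms together. It is no test of the vehicle wounds alone. The 53 gene lists used below name 1267 genes, of which 1254 are in the table and 1122 passed the filter, and the counts are over those that passed.

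Hair follicle genes were far higher on day 14. All 45 of the 45 keratin-associated protein genes (KRTAP) past the filter were at least 2-fold higher on day 14. The filter favours this count, since members near 0 on days 2 and 6 could pass it only through day 14. Krtap9-5, at 0 FPKM on day 6 and 7.61 on day 14 in the vehicle wounds, is an example. Their median log2 ratio was 6.93, the lowest was 2.39 (Krtap5-2) and 44 of them rose over both arms. KRTAP form the matrix between keratin filaments in the hair shaft. Krtap8-1 stood at 0 FPKM on day 2, 120.4 on day 6 and 15823 on day 14, where it was the most abundant gene of the library. In the vemurafenib wounds it went from 16.6 to 5853 FPKM, so that both day 14 libraries lay far above both day 6 libraries. Its change over both arms was 7.74 ± 0.62 (SE) on the log2 scale, with an adjusted p of 0.00226 by limma. Among genes with a mean of 5 FPKM or more, small RNA and histone genes left out, Krtap19-1 had the largest ratio, from 0.801 to 1152 FPKM (log2 ratio 10.32). Krtap17-1, the one member that limma did not call, went from 39.1 to 436 FPKM (adjusted p = 0.0527). KRTAP genes are near-identical copies of each other in part, so that the split of reads between single members is uncertain. By symbol, 51 KRTAP genes passed the same filter, with the same limit, and all of them were at least 2-fold higher. Those with a position in the annotation lie on chromosomes 7, 10, 11 and 16. Their median log2 ratios were, in that order, 5.11 over 5 genes, 4.29 over 2, 6.38 over 19 and 7.35 over 13. Only 73.3% of the 45 genes have a transcript in the annotation, so that the check on composition is void for KRTAP. In whole skin, more hair-forming cells and more RNA in each such cell cannot be told apart.

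Sequence before the start site is shown for the 4 KRTAP genes and the 2 hair shaft keratins with the highest day 14 level that had a promoter entry, because most of this group shares 1 short element there. The 60 bases before the start, written 5′ to 3′ on the gene's strand from RefSeq (GRCm38.p6), have every match to TATAAA, the core of the TATA box that positions the transcription machinery, in capitals. The matches were sought on both strands.
Krtap8-1 (chr16:89487953-89488012, minus strand): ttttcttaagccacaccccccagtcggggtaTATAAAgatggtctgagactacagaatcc
Krtap22-2 (chr16:89010760-89010819, minus strand): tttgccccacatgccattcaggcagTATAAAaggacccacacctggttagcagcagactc
Krtap15 (chr16:88828949-88829008, plus strand): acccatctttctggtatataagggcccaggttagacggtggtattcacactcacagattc
Krtap19-3 (chr16:88878039-88878098, minus strand): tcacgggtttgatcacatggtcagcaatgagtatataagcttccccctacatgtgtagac
Krt34 (chr11:100041555-100041614, minus strand): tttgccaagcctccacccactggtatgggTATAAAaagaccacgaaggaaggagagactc
Krt31 (chr11:100050552-100050611, minus strand): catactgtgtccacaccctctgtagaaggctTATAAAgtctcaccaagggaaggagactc
In windows from 250 bases before to 50 bases after the start, TATAAA stood in 35 of 41 KRTAP promoters, in 5 of 7 promoters of hair shaft keratins and in 7 of 11 of the inner root sheath. It also stood in 7 of 14 windows of wound-edge genes and 5 of 14 of muscle regeneration genes, lists with medians below 0. It stood in 14.2% of all 27025 windows and in 8.52% of the 9810 windows of genes past the filter. In 25 of the 41 KRTAP windows a match began between 40 and 20 bases before the start. Krtap15 and Krtap19-3 show no exact match in the 60 bases above. The motif CTTTGA, the core that TCF and LEF factors bind, stood in 13 of 41 KRTAP windows and 4 of 7 windows of hair shaft keratins, against 2 of 11 of the inner root sheath and 16.2% of all windows. These matches describe letters and not bound sites.

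All 13 hair shaft keratins were at least 2-fold higher on day 14 (median log2 ratio 4.94), and all 13 rose over both arms. Krt33a, an acidic keratin of the hair cortex, went from 21.3 to 1473 FPKM and was listed at 0 on day 2. Krt86, one of the basic partners, went from 11.9 to 910.0 FPKM. Krt35 and Krt85, which are switched on low in the forming shaft, already stood at 197 and 158 FPKM on day 6 and at 536 and 954 on day 14, log2 ratios of 1.44 and 2.59. Krt35 had the smallest ratio of the list, and Krt32, at 19.9 and 103 FPKM, the next. Krt39 and Krt40, which belong to the shaft and to no list here, rose as well, from 0.0644 to 18.4 and from 1.31 to 28.7 FPKM.

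The inner root sheath, the rigid tube that guides the growing shaft, was high on day 6 and higher on day 14. Of its 14 genes past the filter 13 were at least 2-fold higher (median 2.17) and 9 rose over both arms. Krt71 went from 1164 to 5367 FPKM, Krt25 from 821 to 3629.7 and Krt27 from 448 to 2939. These keratins of the sheath stood at 0.0739, 0 and 0.396 FPKM on day 2. Trichohyalin (Tchh), which hardens the sheath and the medulla, rose from 106 to 1286 FPKM and Padi3, the deiminase that modifies it, from 30.6 to 219. The KRTAP, hair shaft keratins and sheath genes together (72 genes) held 0.485% of the summed FPKM of the vehicle library on day 6 and 16.4% on day 14, against 0.235% and 7.46% in the vemurafenib libraries and under 0.01% in both day 2 libraries.

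Regulators of the hair matrix, the dividing pool at the follicle base, were higher with smaller ratios. In the list of matrix, companion layer and stem cell genes 18 of 33 were at least 2-fold higher and 1 lower, with a median of 1.08, and 7 rose. Foxn1, the factor that is defective in nude mice, rose from 7.59 to 51.3 FPKM and Msx2, a homeobox factor of the matrix, from 25.7 to 80.2. Hoxc13, which drives hair keratin genes, went from 26.9 to 98.4 FPKM without passing the test (adjusted p = 0.0635 by limma). Gprc5d, a receptor of the hair cortex, rose from 16.3 to 644 FPKM. Krt75, of the companion layer, rose from 58.5 to 291. The hedgehog ligand Shh stood at 5.49 and 4.66 FPKM, and Krt6a, which the companion layer shares with the wound edge, at 1631 and 208. Fgf5, the signal that ends hair growth, rose from 0.816 to 14.5 FPKM, with 0.288 on day 2 and 0.423 and 15.9 in the vemurafenib wounds. Its log2 change over both arms was 4.47 ± 0.47 (SE; adjusted p = 0.00577, limma). Both day 14 libraries lay above all 4 earlier ones.

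Dermal papilla genes, from the mesenchyme that instructs the follicle, had no common direction (median 0.12, 4 higher and 2 lower of 17). Crabp1, a retinoic acid binding protein of papilla and wound fibroblasts, fell from 238 to 13.9 FPKM. Corin, a protease of the papilla that modifies agouti pigment signalling, stood at 1.12 and 5.33 FPKM and did not pass the test. Of the Wnt and hedgehog list 8 of 33 genes were at least 2-fold higher and 3 lower, and the single called gene, the Wnt antagonist Sfrp2, fell from 98.3 to 29.2 FPKM. Tcf7 and Lef1, the nuclear partners of beta-catenin, stood at 4.22 and 14.6 FPKM on day 6 and 21.0 and 32.8 on day 14. The hedgehog receptor and target Ptch1 went from 1.46 to 7.72 in the vehicle and from 1.87 to 2.12 in the vemurafenib wounds.

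Pigment genes were higher on day 14 beside the hair genes. Of 16 melanocyte genes 15 had a ratio above 0 and 8 were at least 2-fold higher, with a median of 1.05 as deposited and 0.83 centred. Tyrp1, an enzyme of black pigment synthesis, rose from 10.3 to 65.1 FPKM, and Trpm1, a channel of pigment cells, from 9.81 to 40.6. The pigment enzymes Dct and Tyr, at 67.2 and 4.79 FPKM on day 6 and 161 and 16.5 on day 14, did not pass the test. The agouti gene a, whose product switches melanocytes of C3H mice to yellow pigment for part of the growth phase, went the other way and fell from 29.9 to 1.06 FPKM, with 7.74 and 0.81 in the vemurafenib wounds. It was 7.15 FPKM on day 2, so that its vehicle level on day 6 was the highest of the 3 days.

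**Figure D2:**
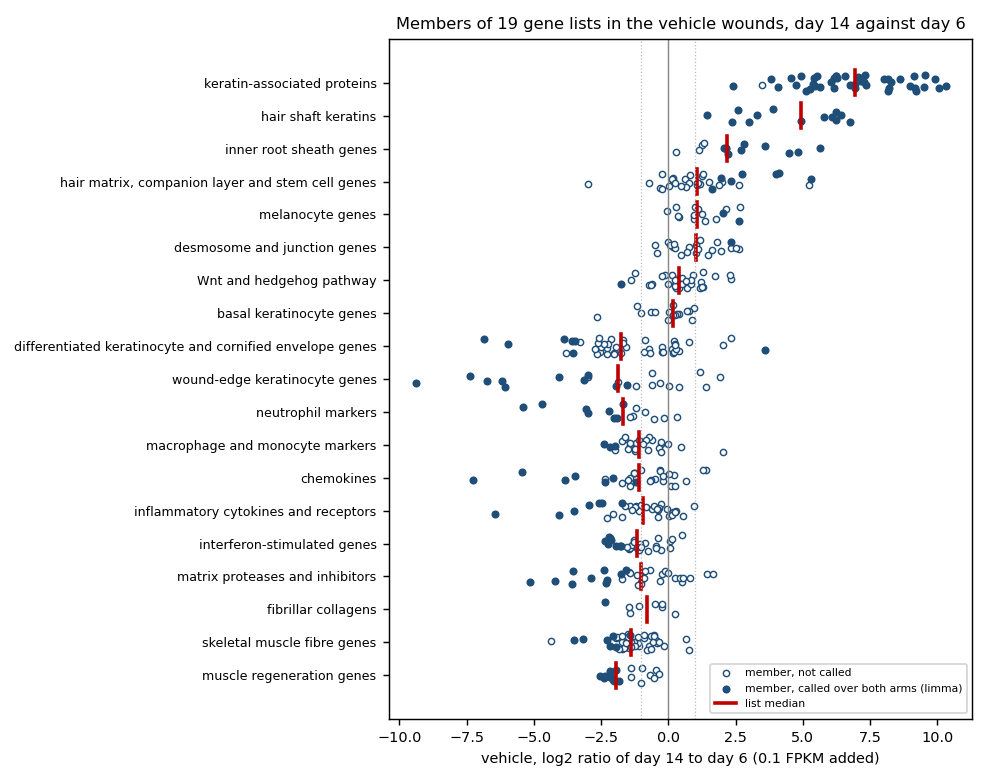
Log2 ratio of day 14 to day 6 in the vehicle wounds (horizontal axis) for every member past the filter of 19 gene lists (rows). Filled points were called by limma over both arms, open points were not, and red bars are list medians; KRTAP genes sit between 2.39 and 10.32, while the wound-edge list spans -9.40 to 1.91.

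Wound-edge keratinocyte genes showed the opposite picture. Of the 21 genes on this list 13 were at least 2-fold lower on day 14 and 3 higher, the median was -1.86, and 10 fell over both arms. Krt6b, a keratin of activated keratinocytes, stood at 693 FPKM on day 2, 1413 on day 6 and 2.00 on day 14, and at 368 and 0.727 in the vemurafenib wounds on days 6 and 14. Its change over both arms was -9.10 ± 0.45 (SE, log2; adjusted p = 0.000566, limma). Krt16, its usual partner at the wound edge, fell from 3596 to 49.5 FPKM. Krt6a, a near copy of Krt6b from which reads are hard to separate, stood at 1631 and 208 FPKM (adjusted p = 0.0854). Krt17, which wound edge and hair follicle share, was at 1568 and 1594 FPKM. The fibronectin receptor chain Itga5, used in migration, fell from 17.5 to 5.90 FPKM. Stfa1 and Stfa3, which encode stefin A protease inhibitors, fell from 432 to 3.94 and from 2053 to 30.1. The 3 members that were at least 2-fold higher on day 14 were Sprr1a, the gap junction gene Gjb2 and the plasminogen activator inhibitor Serpinb2, and none of them passed the test.

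The keratin genes lie in a cluster on chromosome 11 and another on chromosome 15, and both clusters held large ratios in both directions. Counted by symbol after the values had been seen, 44 keratin genes passed the filter, of which 28 were at least 2-fold higher and 8 lower on day 14. On chromosome 11 (mm9, 99176830 to 100131185) 15 of 21 were higher and 3 lower, and on chromosome 15 (101177875 to 101862457) 11 of 21 were higher and 5 lower. The 8 lower genes were the wound-edge genes Krt6a, Krt6b and Krt16, the basal pair Krt5 and Krt14, and Krt1, Krt10 and Krt78 of the differentiating layers. Krt16 (mm9 chr11:100107405-100110276) and Krt34 of the hair cortex (mm9 chr11:99898661-99902868) lie in the same cluster and had log2 ratios of -6.18 and 6.42.

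Basal keratinocyte genes did not share a direction (median 0.18, 0 higher and 3 lower of 16, no call in limma). The list includes Postn and Sox7, which also stand in the matricellular and the vascular endothelial list and are not particular to basal cells. Krt14 was 7741 FPKM on day 2, 8285 on day 6 and 1332 on day 14, and Krt5, its partner, 4675, 3259 and 1436. In the vemurafenib wounds Krt14 went from 3090.0 to 1692 FPKM and Krt5 from 1439 to 1977, so that for Krt5 the arms went different ways. Trp63, the factor that keeps epidermis stratified, stood at 27.9 and 52.1 FPKM.

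Genes of the differentiated layers and of the cornified envelope, the protein shell of dead surface cells, were lower on day 14. Of 45 genes 26 were at least 2-fold lower and 3 higher (median -1.77, centred -1.37), while 6 fell and 1 rose over both arms. Krt1 fell from 3130.2 to 268 FPKM, with 319 on day 2. Its partner Krt10 was at 3910.4 and 889 FPKM, and loricrin (Lor), the main protein of the envelope, at 4251 and 638 (adjusted p of 0.14 and 0.101 by limma). On day 2 they stood at 308 and 756 FPKM, so that day 14 lay above day 2 for Krt10 and below it for Lor. Of the 21 late cornified envelope genes (Lce) past the filter 20 were at least 2-fold lower, and 7 fell. In the neighbouring Sprr family 9 of 12 were at least 2-fold lower and 8 fell, among them Sprr2d from 255 to 1.43 FPKM and Sprr1b from 914 to 104. Sprr1a and Sprr4 of the same locus were higher, at 1498 and 3919 and at 264 and 2164 FPKM, and of these Sprr4 rose over both arms. Tchh, counted above with the root sheath, was the 1 gene of this list that rose.

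Promoters of 3 Sprr genes are shown because they differ in direction while each holds a match to TGANTCA, the element that AP-1 factors of the Fos and Jun families bind. The 250 bases before the start are written as above (RefSeq, GRCm38.p6), with the matches in capitals.
Sprr2d (chr3:92338890-92339139, plus strand): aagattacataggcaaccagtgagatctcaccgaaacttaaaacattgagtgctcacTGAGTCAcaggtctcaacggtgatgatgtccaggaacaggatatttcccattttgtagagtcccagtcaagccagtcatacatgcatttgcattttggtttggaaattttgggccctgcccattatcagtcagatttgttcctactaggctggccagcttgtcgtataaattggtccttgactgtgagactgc
Sprr1b (chr3:92438780-92439029, minus strand): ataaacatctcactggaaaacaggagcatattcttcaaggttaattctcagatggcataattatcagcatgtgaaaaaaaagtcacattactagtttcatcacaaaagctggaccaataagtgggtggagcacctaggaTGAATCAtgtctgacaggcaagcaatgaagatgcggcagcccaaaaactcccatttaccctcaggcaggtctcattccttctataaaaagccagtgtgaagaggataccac
Sprr1a (chr3:92485882-92486131, minus strand): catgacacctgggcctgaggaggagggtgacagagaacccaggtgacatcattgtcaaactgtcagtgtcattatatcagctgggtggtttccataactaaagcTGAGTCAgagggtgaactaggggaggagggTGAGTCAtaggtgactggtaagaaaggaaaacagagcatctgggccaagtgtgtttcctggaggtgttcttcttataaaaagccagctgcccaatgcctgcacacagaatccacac
The element stood in 6 of 14 wound-edge windows, in 7.93% of all windows and in 5.75% of those of genes past the filter. Sprr2d and Sprr1b, with 1 match each, fell, whereas Sprr1a, with 2, had a log2 ratio of 1.39.

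Junction genes were higher on day 14. Of 22 desmosome, gap and tight junction genes 12 were at least 2-fold higher and none lower (median 1.04), and centring left 8 of them past 2-fold (median 0.72). Gja1, the main gap junction protein of skin, rose from 132 to 662 FPKM, with 99.3 and 441 in the vemurafenib wounds. The tight junction genes Ocln and Cldn1 stood at 2.22 and 36.1 FPKM on day 6 and at 13.1 and 140.0 on day 14 without passing the test. Of 23 sebaceous gland genes 7 were at least 2-fold higher, against 12.6% of all genes, and 7 had a ratio below 0 (median 0.29). The lipid desaturases Fads2 and Scd3 rose from 8.10 to 28.0 and from 9.94 to 37.4 FPKM. Plin2, the lowest of the list, stood at 129 and 72.3 FPKM.

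**Figure D3:**
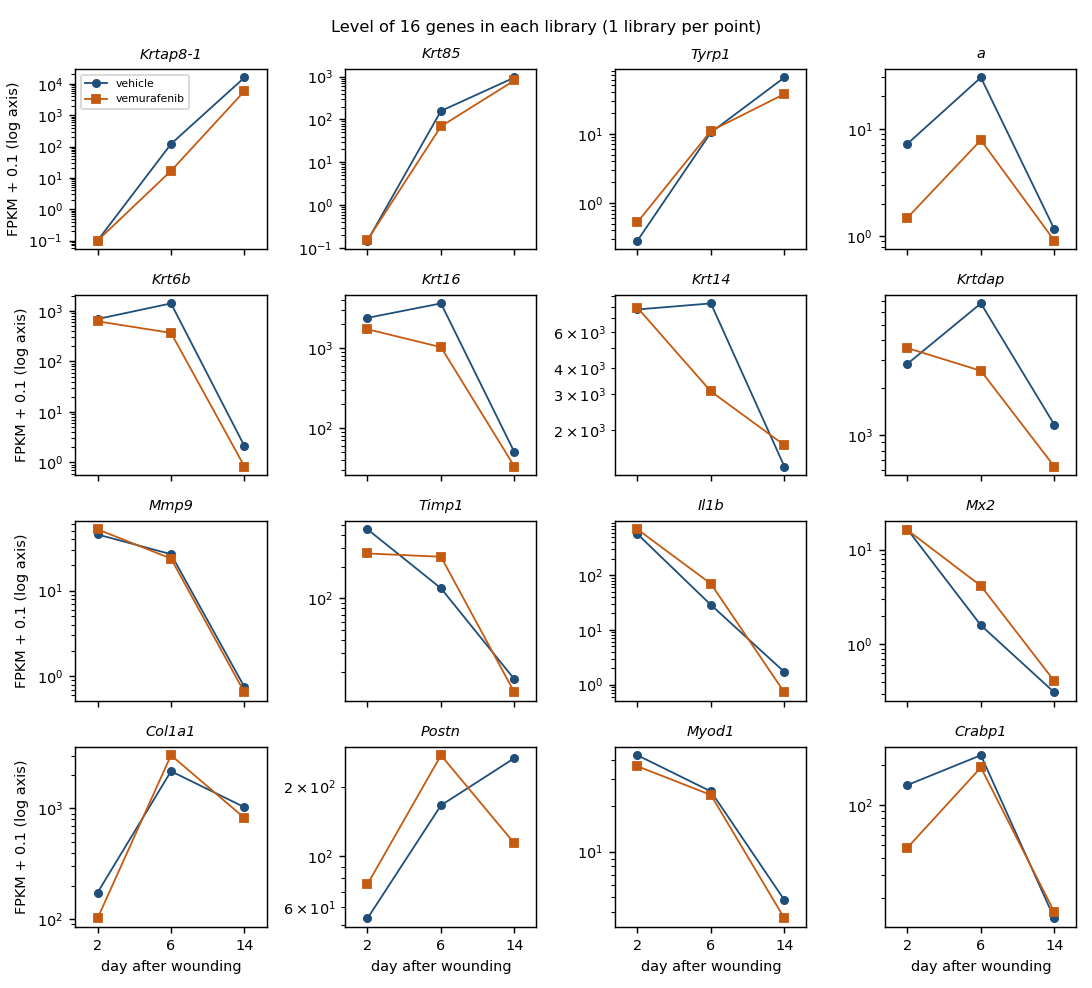
Level of 16 genes in each of the 6 libraries (vertical axis, FPKM + 0.1 on a log axis) by day after wounding (horizontal axis), with circles for vehicle and squares for vemurafenib and 1 library per point. Krtap8-1, Krt85 and Tyrp1 are highest on day 14, Krt6b drops to 2.00 FPKM in the vehicle wounds, and Postn goes different ways in the arms.

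Genes of inflammatory cells were lower on day 14. Of 15 neutrophil markers 11 were at least 2-fold lower and 8 fell (median -1.68). Mmp8, Cd177 and Ngp lay at 0.31 FPKM or less in both vehicle libraries and passed the filter only through day 2. Mmp8, at 0.262 and 0.0355 FPKM, is counted among the 11. S100a8 and S100a9, which form calprotectin, fell from 628 to 79.5 and from 306 to 11.8 FPKM, after 3813 and 3294 on day 2, and keratinocytes of wounds make them too. The receptor genes Csf3r and Trem1 fell as well, from 3.45 to 0.783 and from 1.27 to 0.0641 FPKM. Among 27 macrophage and monocyte markers 14 were at least 2-fold lower, 1 higher and 3 fell (Spp1, Cd14 and Aif1), with a median of -1.104. Cd14, a receptor for bacterial lipopolysaccharide, fell from 52.2 to 11.6 FPKM. The complement gene C1qa, at 264 and 96.9 FPKM, had a log2 ratio of -1.44 as deposited and -0.64 centred. Gpnmb, of macrophages and pigment cells, was the member that was 2-fold higher, at 32.7 and 135.

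Chemokine and cytokine genes were lower as well. Of 30 chemokine genes 16 were at least 2-fold lower and 2 higher, and 7 fell. Cxcl2, which draws neutrophils, went from 644 FPKM on day 2 to 13.7 on day 6 and 0.217 on day 14. Ccl3 fell from 11.2 to 0.689 FPKM, and its neighbour Ccl4 from 15.2 to a value listed at 0. Cxcl14, which skin makes at rest, was 73.3 and 179 FPKM and did not pass the test. In the cytokine and receptor list 17 of 34 were at least 2-fold lower, none was 2-fold higher and 7 fell. Il1b fell from 28.6 to 1.60 FPKM after 566 on day 2, Tnf from 1.74 to 0.465 and Osm from 2.07 to 0.181. Il24, an interleukin of activated epidermis, fell from 8.65 FPKM to a value listed at 0 in the vehicle wounds and from 4.49 to 0 in the vemurafenib wounds.

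Antimicrobial and acute-phase genes split. Of 20 such genes 10 were at least 2-fold lower and 1 higher (median -1.03, centred -0.65). Slpi, an inhibitor of neutrophil elastase, fell from 211 to 12.4 FPKM, and the beta-defensin Defb14 from 129.9 to 10.3. S100a7a, a relative of human psoriasin, rose from 9.26 to 159.6 FPKM and stood at 2.33 on day 2.

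Interferon-stimulated genes were lower as a group, with 19 of 29 at least 2-fold lower and a median of -1.18. Over both arms 8 of them fell, the antiviral genes Mx2, Oas1a, Oas3, Oasl1, Oasl2, Bst2, Rtp4 and Isg15. Isg15, a ubiquitin-like modifier, went from 968 FPKM on day 2 to 49.5 on day 6 and 14.4 on day 14. The vemurafenib step had a median of -3.06 for these genes, with 29 of 29 at least 2-fold lower, with Isg15 at 129 and 20.1 FPKM. Whether the arms differ was not tested.

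Markers of antigen presentation and lymphocytes had few calls. The MHC class II list had 5 of 9 genes at least 2-fold lower and a median of -1.11 as deposited, and 2 and -0.62 after centring, and none was called. Of 12 dendritic and Langerhans cell markers 5 were at least 2-fold lower and 1 higher (median -0.77). Ccr7, the receptor with which dendritic cells leave skin, had the lowest ratio of these and fell from 3.22 to 0.281 FPKM. The higher one was Ccl17, at 1.26 and 3.44 FPKM. Of 15 T and NK cell markers 5 were at least 2-fold lower, and Gzma and Ccl5 fell, from 1.34 to 0.212 and from 21.6 to 5.18 FPKM. Of 7 mast cell genes 4 were at least 2-fold lower and 1 had a ratio above 0 (median -1.34). The histamine-forming enzyme Hdc fell from 4.86 to 0.682 FPKM, and neutrophils make Hdc as well. The mast cell proteases Tpsab1, Tpsb2 and Cma1 had log2 ratios of -2.05, -1.73 and -1.34.

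Matrix-cutting enzymes and their inhibitors were mostly lower on day 14. Of the 32 genes on this list 17 were at least 2-fold lower, 2 higher and 10 fell (median -1.01). Mmp9, a gelatinase, was 45.0 FPKM on day 2, 26.5 on day 6 and 0.651 on day 14, and 23.5 and 0.551 in the vemurafenib wounds on days 6 and 14. Its change over both arms was -5.16 ± 0.27 (SE, log2; adjusted p = 0.000602, limma), with log2 ratios of -5.14 in the vehicle and -5.18 in the vemurafenib step. The collagenase Mmp13 fell from 7.63 to 0.32 FPKM, and the inhibitor Timp1 from 124 to 16.9. Plaur, the urokinase receptor, fell from 28.0 to 5.65 FPKM. Timp3, the inhibitor that is bound to matrix, was 30.2 and 94.99 FPKM, and Mmp2 205 and 102; neither passed the test.

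The 4 members of this list with a TGANTCA match within 100 bases before the start are shown, since all 4 were at least 2-fold lower on day 14 and 3 of them fell over both arms (RefSeq, GRCm38.p6, matches in capitals).
Mmp13 (chr9:7272414-7272513, plus strand): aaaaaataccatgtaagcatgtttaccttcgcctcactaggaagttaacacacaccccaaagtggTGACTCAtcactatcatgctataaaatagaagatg
Mmp10 (chr9:7502242-7502341, plus strand): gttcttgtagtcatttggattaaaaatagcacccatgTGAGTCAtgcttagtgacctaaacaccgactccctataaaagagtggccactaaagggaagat
Plaur (chr7:24462383-24462482, plus strand): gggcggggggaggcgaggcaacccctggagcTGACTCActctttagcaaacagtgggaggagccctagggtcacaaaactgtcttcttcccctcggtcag
Mmp3 (chr9:7445722-7445821, plus strand): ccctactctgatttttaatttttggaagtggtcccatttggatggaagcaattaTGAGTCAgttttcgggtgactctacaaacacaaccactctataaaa
They were the only 4 of 21 windows of the list with a match (19.05%, against 7.93% of all windows and 5.75% of those of genes past the filter). Mmp3, the one not called, stood at 80.1 and 24.3 FPKM. The element also stood in 6 of 41 windows of KRTAP, which were higher on day 14, and in 2 of 14 of muscle regeneration genes. It stood in 1 of 11 windows of the inner root sheath and 0 of 7 of hair shaft keratins. In the whole list 17 of 32 genes were at least 2-fold lower, and a link of match and direction was not tested.

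Fibrillar collagen genes were lower in part. Of 8 genes 4 were at least 2-fold lower (median -0.78), and only Col5a3 fell, from 63.5 to 12.5 FPKM. Col1a1 was 173 FPKM on day 2, 2169 on day 6 and 1026 on day 14. Col3a1, the chain of fine early fibres, was 135, 1012 and 1208 FPKM. In the vemurafenib wounds Col3a1 went from 1535 to 542, so that its step had opposite signs in the 2 arms. Col7a1, the anchoring fibril under the epidermis, fell from 36.4 to 3.28 FPKM. Among collagen processing enzymes 14 of 25 were at least 2-fold lower as deposited and 10 after centring, and Adamts14 and the proline hydroxylase P4ha2 fell, from 6.14 to 1.60 and from 28.2 to 10.5. The lysyl oxidase Lox was at 21.0 and 26.4 FPKM.

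Provisional matrix and matricellular genes went both ways. The list held 8 genes at least 2-fold lower and 3 higher of 24 (median -0.65), and 3 fell. Tnn, a tenascin, fell from 10.3 to 0.799 FPKM, and Cthrc1, a product of matrix-forming fibroblasts, from 119 to 47.0. Fibronectin (Fn1) stood at 108 and 38.1 FPKM (adjusted p = 0.0508, limma). Periostin (Postn), which crosslinks new collagen, was at 166 and 266 FPKM in the vehicle wounds and at 274 and 113 in the vemurafenib wounds. The small proteoglycans Ogn and Aspn were at 15.98 and 14.4 FPKM on day 6 and at 48.6 and 44.6 on day 14, and elastin (Eln) at 72.4 and 135; none of these passed the test. Acta2, the actin of myofibroblasts and vessel walls, was 88.0 and 61.5 FPKM.

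Fibroblast markers were lower with a median of -0.71, with 8 of 25 at least 2-fold lower and 2 higher. The 4 that fell were Crabp1, Sfrp2, Twist2, a factor of dermal precursors, from 40.2 to 11.2 FPKM, and S100a4, a calcium-binding protein of motile cells, from 618 to 195. Elastic fibre and small proteoglycan genes had a median of -0.59, basement membrane and integrin genes -0.30 and contractile genes of smooth muscle and myofibroblasts -0.22, the last of which turned to 0.05 after scaling to the same total FPKM.

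Muscle genes formed a further group. The incision lies over the thin skin muscle, and muscle repair runs through the factors Myod1 and Myog and through embryonic subunits of myosin and of the acetylcholine receptor. Of 19 regeneration genes 14 were at least 2-fold lower, all 19 were below 0 and 11 fell (median -1.94, centred -1.46). Myod1 fell from 24.9 to 4.70 FPKM, after 43.1 on day 2, with 23.5 and 3.53 in the vemurafenib wounds. Myog fell from 43.5 to 8.50, the embryonic myosin Myh3 from 5.10 to 1.05, and Tmem8c, the fusion protein myomaker, from 24.0 to 5.24 FPKM. Of 43 genes of mature fibres 28 were at least 2-fold lower (median -1.38) and 7 fell. The fast myosin Myh4 fell from 63.5 to 5.44 FPKM, while the actin Acta1 was 8877, 1525 and 715 on days 2, 6 and 14. The summed level of the mature fibre list was 9149 FPKM on day 6 and 3869 on day 14, and 18292 and 9953 in the vemurafenib libraries, and how much muscle each piece of skin held was not tested.

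Vessel and glycolysis genes were lower by smaller ratios. Of 28 vascular endothelial genes 10 were at least 2-fold lower as deposited and 7 centred (medians -0.78 and -0.66), and none was called. Pecam1, the general endothelial marker, was 25.5 and 13.8 FPKM. In the hypoxia and glycolysis list 11 of 28 were at least 2-fold lower, 6 of them centred. The glucose transporter Slc2a1 and the lactate transporter Slc16a3 fell, from 68.9 to 17.2 and from 20.4 to 3.53 FPKM. Gapdh, often used as a reference gene, was 631 and 276 FPKM.

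Signalling genes gave few calls. Tgfa, a ligand of the EGF receptor, rose from 6.87 to 30.0 FPKM. The list of EGF receptor ligands and receptors had a median of 0.94 as deposited and 0.14 centred. Of 18 targets of the ERK pathway 4 were at least 2-fold higher and 1 lower (median 0.13). Among these the inhibitor Spred2 stood at 1.47 and 7.49 FPKM in the vehicle wounds and 2.27 and 2.06 in the vemurafenib wounds, and limma called no member. Immediate early genes had a median of -0.11 (0.17 after scaling to the same total FPKM), with Fos at 17.4 and 5.19 FPKM and Egr2 at 12.2 and 28.0, and no call. In the TGF-beta list Bambi and Smad6, inhibitors of the pathway, rose from 4.91 to 25.7 and from 5.24 to 18.1, whereas the target Tgfbi fell from 120.4 to 41.5 FPKM.

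No gene of the lists of DNA replication, mitosis, cytosolic ribosomal proteins or the respiratory chain was called. DNA replication genes had a median of -0.43 and mitosis genes -0.24 (-0.59 centred, but 0.04 after scaling to the same total FPKM). Birc5, a passenger of the mitotic chromosomes, was 78.5 and 27.8 FPKM. Cytosolic ribosomal protein genes had a median of -0.44 as deposited and 0.01 centred, and respiratory chain genes -0.44 and -0.13. Circadian clock genes had a median of 0.55 as deposited and 0.17 centred. From the stress list Chac1, an enzyme of glutathione breakdown that stress induces, rose from 9.92 to 157 FPKM, while Trib3, another stress gene, fell from 11.1 to 2.84.

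Adipocyte genes had a median of 0.18 (2 of 22 at least 2-fold higher), Schwann cell and nerve genes 0.40 (4 of 14) and lymphatic endothelial genes 0.19 (none of 7). Of 7 haemoglobin and red cell genes 1 was at least 2-fold higher and 3 were lower, all 3 of them globins. Hbb-b1 stood at 272 and 70.6 FPKM, Hba-a1 at 173 and 37.8 and Hbb-b2 at 29.5 and 7.99, and limma called none of them. Slc4a1, the anion exchanger of red cells and of kidney, rose from 0.494 to 6.00 FPKM. The median of this list, -0.12 (0.32 centred), is the ratio of Hba-a2, which lay at 0.0312 and 0.0206 FPKM and passed the filter through the 18.4 FPKM of day 2.

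Beyond the lists, the lowest ratio among genes with a mean of 5 FPKM or more was that of Spink7, a protease inhibitor, which went from 261 FPKM on day 6 to a value listed at 0 on day 14, and from 57.2 to 0 in the vemurafenib wounds. The defensin Defb3 went from 35.7 FPKM to 0, and BC100530, whose role is not given in the files, fell from 2849 to 33.3. Among the higher genes, Crisp1, a secreted protein known from the epididymis, rose from 0.0216 to 49.6 FPKM, and the genes Gm10228 and 1110025L11Rik rose from 2.43 to 2213 and from 3.24 to 2152.

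The vemurafenib step from day 6 to day 14 shares no library with the vehicle step. It had 999 genes at least 2-fold higher (7.46%) and 1949 lower (14.6%). Of the 1683 genes higher in the vehicle wounds 554 were also 2-fold higher there (32.9%, or 55.5% of the vemurafenib set). Of the 1353 lower genes 848 were also lower (62.7%, or 43.5% of the vemurafenib set). Across 13392 genes, which are not independent of each other, Pearson's r of the ratios was 0.57, and 60.9% of the genes had the same sign in both. For the 12093 genes with a transcript r was 0.71 as deposited and 0.80 centred, and the share with the same sign 61.4% and 69.8%. Both day 14 libraries lay above both day 6 libraries for 1222 of the 1683 higher genes, against 27.6% of all genes, and below them for 1107 of the 1353 lower ones, against 25.4% of all genes. The 1683 and 1353 genes were picked by their vehicle ratio, which fixed part of this ordering in advance. The shares of all genes are therefore no like reference. The ordering also sets libraries of one arm against those of the other, so it is no separate check by the vemurafenib pair.

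**Figure D4:**
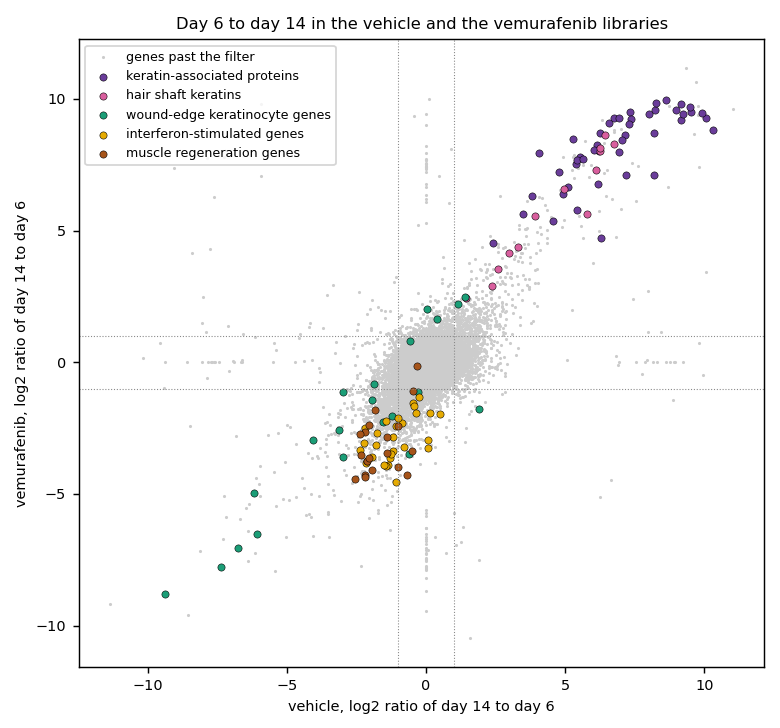
Log2 ratio of day 14 to day 6 in the vehicle wounds (horizontal axis) and in the vemurafenib wounds (vertical axis) for the 13392 genes past the filter (grey) and the members of 5 lists (coloured), with dotted lines at 2-fold. KRTAP genes and hair shaft keratins lie at the upper right in both arms, and interferon-stimulated genes lie lower on the vemurafenib axis, with medians of -1.18 and -3.06.

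The size of the step differed between the arms for several lists. Immediate early genes had medians of -0.11 in the vehicle and -1.67 in the vemurafenib step, chemokines -1.097 and -2.93, matricellular genes -0.65 and -2.17, and fibrillar collagens -0.78 and -1.90. In each of these the vemurafenib value was the lower one, and for Fos, Cxcl2 and Col1a1 the day 6 level was higher with vemurafenib (113, 47.4 and 3026 FPKM) than with vehicle (17.4, 13.7 and 2169). The cornified genes were the reverse, with medians of -1.77 in the vehicle and -0.53 in the vemurafenib step, from a day 6 level of loricrin of 4251 FPKM with vehicle and 1284 with vemurafenib. With 1 library per point these differences could not be tested.

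**Figure D5:**
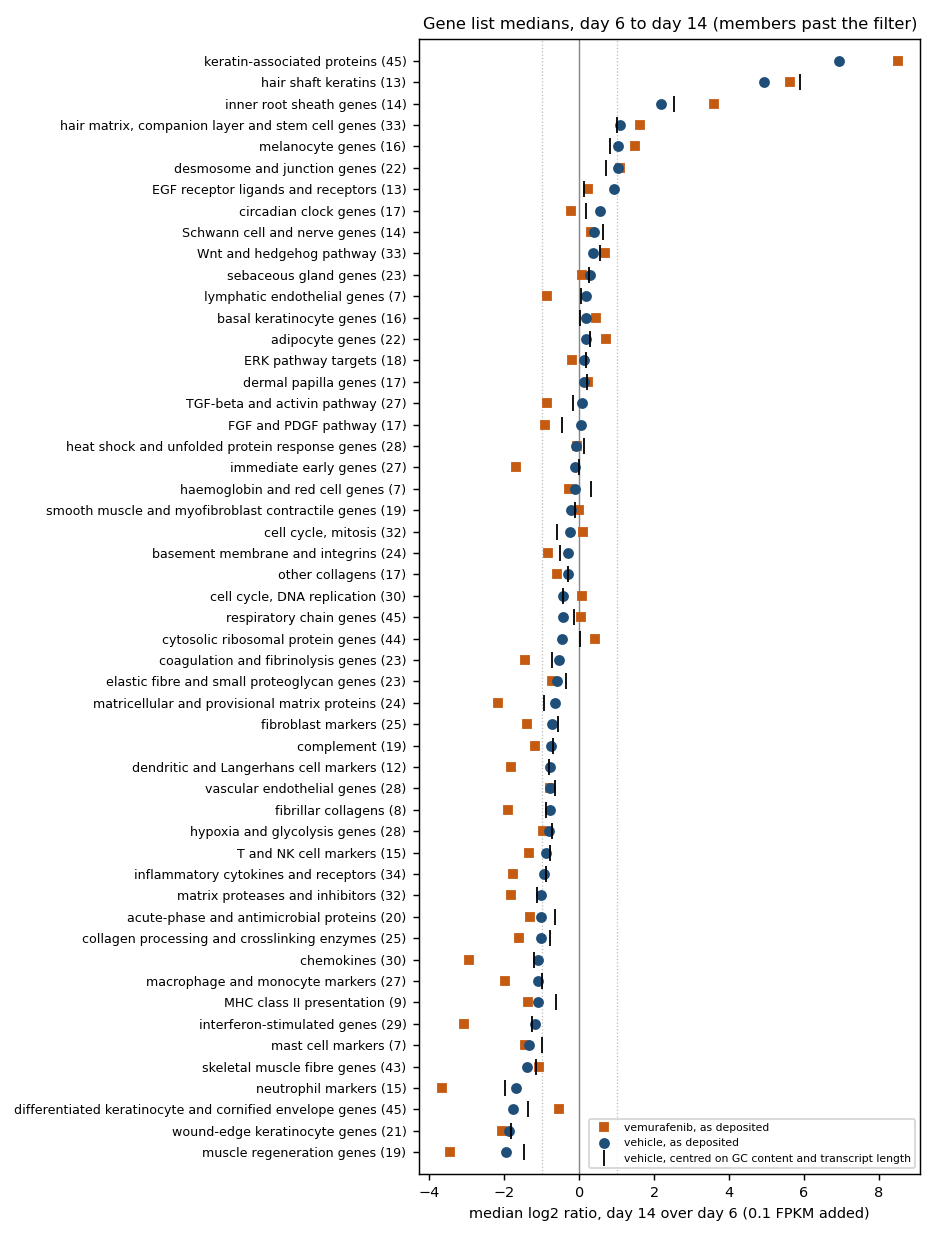
Median log2 ratio of day 14 to day 6 (horizontal axis) for the gene lists with at least 5 members past the filter (rows, number of members in brackets), for the vehicle step (circles), the vemurafenib step (squares) and the vehicle step after centring on GC content and transcript length (bars, where at least 80% of the members had a transcript). KRTAP genes lie highest with a vehicle median of 6.93, followed by hair shaft keratins at 4.94, and muscle regeneration genes lie lowest at -1.94.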

How the data were processed

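The authors aligned RNA-seq reads to the mouse genome (mm9) with TopHat and made gene values with Cufflinks tools, and they deposited 1 table of FPKM values with 6 columns, 1 per library. The 27 rows whose symbols had turned into dates were left out of 23940. Sample labels call the control wounds untreated and the study's methods call them vehicle. Ratios were log2((day 14 FPKM + 0.1)/(day 6 FPKM + 0.1)) for genes whose mean across all 6 libraries reached 1 FPKM, so ratios of low genes are understated. All members and lists were chosen with earlier results of these data known.

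limma 3.58.1 (R 4.3.3) was run on log2(FPKM + 0.1) with an intensity trend, and Benjamini-Hochberg adjusted p under 0.05 counted as a call. Other steps used Python 3.11.15 with pandas 2.3.3. The limma step was tested on simulated data. No source used here says how many mice a library holds, and p-values measure only the spread between these libraries. Transcript length and GC content were taken from the longest coding transcript of GENCODE M1, and ratios were centred in 10 GC bins of 5 length bins each. Promoters were RefSeq windows (GRCm38.p6).

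Genes were named by extreme ratio (the 15 highest and 15 lowest with a mean of 5 FPKM or more, without small RNA and histone genes), by list (members at 2-fold or beyond, or the 6 largest ratios), by agreement or opposition of the arms (10 each) and by limma (the 10 smallest adjusted p per direction). Others were named for a known role after their values were seen.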

Additional observations from a re-analysis of the deposited data

Results flagged for a closer look

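With a mean of at least 5 FPKM, 13 genes were at least 2-fold apart from day 6 to day 14 in opposite directions in the 2 arms, and the 10 with the largest gap are given. The difference between the arms was not tested for any of them. Lower in the vehicle and higher in the vemurafenib wounds were the ribonuclease gene Rnaset2a (log2 ratio -7.13 against 1.39), the mitochondrial tRNA ligase gene Lars2 (-4.52 against 1.07) and the envelope gene Lce3a (-2.03 against 2.02). Reads of Rnaset2a are shared with a near-identical copy. Lars2 stood at 306, 4179.8 and 182 FPKM on days 2, 6 and 14 with vehicle and at 196, 165 and 347 with vemurafenib. Its high value is thus that of the vehicle library of day 6 alone, in which Mir6236 took 13.9% of the total FPKM. Whether the levels of Lars2 and Mir6236 are linked was not tested.

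Higher in the vehicle and lower in the vemurafenib wounds was the macrophage elastase gene Mmp12, at 7.74 and 21.2 FPKM with vehicle and 73.3 and 13.04 with vemurafenib (log2 ratios 1.44 and -2.48). Thbs1, which encodes the matricellular protein thrombospondin, had 1.36 and -1.08. The EGF receptor inhibitor Errfi1 had 1.28 and -1.31, and Serpinb2 had 1.91 and -1.79. The Hippo pathway gene Mob1a had 2.72 and -1.19, BC005537 had 1.73 and -1.09, and Gm7367 had 1.34 and -6.26. After centring on GC content and length, the vehicle ratios were 0.64 for Mmp12, 1.02 for Thbs1, 0.97 for Errfi1, 1.56 for Serpinb2 and 1.99 for Mob1a.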

How the results depend on the processing

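The 1683 higher genes became 926 when the mean had to reach 5 FPKM, 2642 with all libraries at the same total FPKM and 2968 with the same total after removal of hair genes and Mir6236 (median of all genes 0.38), and 858 after centring on GC content and length, which kept 12093 genes (1541 of them higher before centring). The 1353 lower genes became 868 and 808 under the 2 same-total scalings. The last scaling and the centring were chosen after seeing the data. Under the other settings both counts stayed within 1.5 times, as did the 1402 genes at 2-fold the same way in both arms under each setting tried.

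The 488 limma calls became 31 with no filter on the mean, none of them among the 488, 820 without the day 2 libraries, 762 with library medians set equal (488 of them shared), and 416 after centring, against 835 as deposited on the same 12093 genes. The unfiltered fit took in the low genes as well, 23913 genes in place of 13392, and why its calls differed was not tested. No named gene or list at 2-fold or beyond changed sign under any scaling or other FPKM addition. Of 494 named genes at 2-fold or beyond, 77 came under 2-fold with the same total FPKM and 85 after centring. Of 19 lists with a median that large 7 and 6 did. The 7 lists had medians from -1.18 to -1.01 as deposited. They were the macrophage and monocyte, MHC class II, chemokine, acute-phase and antimicrobial, interferon-stimulated, collagen processing and matrix protease lists. No library could be left out of the vehicle step, and no paired analysis was possible because each group holds 1 library and the labels carry only replicate number 1. Depth is unknown, so counting error cannot be given.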
